A study of Mus musculus with 6 samples.

Results

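The IL-1 and IL-18 receptor family and its proximal adaptors were examined in sorted hematopoietic stem cells (HSCs) with and without Med23, a subunit of the Mediator complex that links transcription factors to RNA polymerase II. The members were 8 genes of the 34745 in the deposited tables, chosen by symbol: Il1r1, Il1r2, Il1rap, Il1rl1, Il18r1 and Il18rap, which encode receptor chains, and Myd88 and Irak3, which encode an adaptor and a kinase-like inhibitor. RNA-seq was made from 3 WT and 3 KO libraries of bone marrow HSCs (LSK cells that are CD150+CD34-CD48-) of adult C57BL/6 mice. WT mice carried floxed Med23 alleles without Cre. KO mice carried the same alleles with Mx1-cre, and all mice thus shared the floxed alleles. The Mx1 promoter that drives Cre is induced by interferon, by way of poly(I:C) injection in the methods, and is active in many cell types besides HSCs. Injection of the WT mice used for these libraries, the exact age, and whether animals were pooled are not given in the sources used here.

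Receptors of this family carry immunoglobulin domains outside the cell and a TIR domain inside it. IL-1 binds Il1r1, the IL-1 type 1 receptor, and the complex signals only after Il1rap, the accessory protein shared with the IL-33 receptor, joins it. Il1r2 binds IL-1 but lacks a signalling tail and acts as a decoy. Il1rl1 (ST2) is the receptor of IL-33, and Il18r1 and Il18rap are the binding and accessory chains of the IL-18 receptor. The TIR domains recruit Myd88, which assembles the IRAK kinases and leads to NF-kB activation, and Irak3 (IRAK-M) restrains that step. In HSCs, IL-1 is known as an inflammatory cue that pushes stem cells toward division and myeloid output.

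In these HSCs the family was present as an adaptor and inhibitor at high level, receptor chains at low level, and Il1rl1 at no count in any library. None of the 5 members with enough counts to test passed the threshold between KO and WT (edgeR's quasi-likelihood test, Benjamini-Hochberg adjusted p under 0.05). Irak3, Il1r1, Il18rap and Myd88 had higher estimates in KO, Il1rap had a lower one, and in all 5 the KO and WT libraries overlapped. Il1r2 and Il18r1 did not pass the filter on low counts and were read from raw counts. Il1r2 stayed near the floor of detection. Il18r1 was uneven, with 24 counts in WT replicate 1, 29 in KO replicate 1 and 0 to 7 in the others.

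Libraries held between 3537269 and 8131344 counts, so that 3 counts, taken as the smallest detectable signal, correspond to between 0.369 and 0.848 CPM, the count relative to the library total. Intervals cover counting error and the spread between libraries, and the floors cover counting error alone. Neither covers duplicated reads. In WT, Med23 stood at 47.6 (replicate 1), 70.8 (replicate 2) and 24.1 (replicate 3) normalized CPM, and in KO at 31.6, 29.8 and 36.8. Every KO library thus held more Med23 than the library labelled WT replicate 3, and the log2 fold change of Med23 was -0.54 (SE 0.41, edgeR adjusted p = 0.99) with it and -0.85 (SE 0.34, edgeR adjusted p = 0.67) without it. The counts are summed over the whole gene and do not show the deleted part on its own. Of the sorted population's markers, 12 of 12 HSC genes were tested, 8 with lower and 4 with higher estimates in KO. None passed the adjusted threshold in edgeR, and 4 of the 12 had an unadjusted p under 0.05, beside 5.71% in the whole tested set. KO and WT libraries were fully separated for 4 markers that were lower in KO (Kit, Ly6a, Hlf and Esam) and 1 that was higher (Mecom). In the whole tested set, such separation was seen for 6.15% in the lower direction and 6.25% in the higher. Kit, part of the sorting gate, was at 850, 937 and 796 normalized CPM in WT and 720, 693 and 570 in KO, and the part of these marker differences in the values below was not tested. Both libraries numbered 3 stood apart from the other 4 in 4 Y-linked genes, which summed to 1 count in WT replicate 3, 0 in KO replicate 3 and at least 1036 in each other library. A list of 15 skeletal muscle genes summed to between 170 and 392 CPM in WT and between 10.7 and 42.0 CPM in KO, and their part was not tested either. Mast cell and basophil genes, of a lineage that carries Il1rl1 and Il18r1, were at 0 in all libraries for 8 of 12, with sums between 0.984 and 11.9 CPM in WT and between 6.43 and 9.87 CPM in KO. T, NK and innate lymphoid genes were at 0 for 7 of 14, Cd3e, Cd3d, Cd3g and Il7r among them, with sums between 102 and 117 CPM in WT and between 92.0 and 97.0 CPM in KO. Neutrophil and monocyte genes were at 0 for 3 of 16 (Ltf, Ly6g and Mmp8). They summed to between 415 and 529 CPM in WT and between 431 and 684 CPM in KO. Lyz2 had the highest count of the list in every library, at 1926, 4098 and 1686 in WT and 2024, 2528 and 2346 in KO. Mpo gave 867 counts in KO replicate 3 and at most 23 in any other library.

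The gene positions are those of GENCODE M21 on GRCm38, and 5 of the 8 members lie on the plus strand of chromosome 1 within 477.6 kb. Il1r2 runs from 40074079 to 40125231, Il1r1 from 40225080 to 40317257, Il1rl1 from 40429570 to 40465415, Il18r1 from 40465552 to 40500854 and Il18rap from 40515362 to 40551705. Il1rap lies on chromosome 16 (26581704 to 26730117, plus strand), Myd88 on chromosome 9 (119335934 to 119341411, minus strand) and Irak3 on chromosome 10 (120141648 to 120202130, minus strand). RefSeq windows of 300 bases, 250 before and 50 after each annotated start (GRCm38.p6), were found for 8 of 8 members, 13 windows in all. The 250 bases before the first start are shown for the 3 cluster genes whose first window held no annotated exon ahead of it. They set a gene without a count beside its counted neighbours on the same chromosome. Capitals mark CG dinucleotides and, in Il18rap, the PU.1 motif searched below.
Il1rl1, chr1:40429320-40429569, plus strand: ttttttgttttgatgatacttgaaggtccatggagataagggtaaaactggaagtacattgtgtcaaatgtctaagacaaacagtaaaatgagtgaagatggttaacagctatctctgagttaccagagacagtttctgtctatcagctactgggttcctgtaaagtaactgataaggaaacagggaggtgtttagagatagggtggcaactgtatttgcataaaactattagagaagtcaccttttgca
Il1r1, chr1:40224830-40225079, plus strand: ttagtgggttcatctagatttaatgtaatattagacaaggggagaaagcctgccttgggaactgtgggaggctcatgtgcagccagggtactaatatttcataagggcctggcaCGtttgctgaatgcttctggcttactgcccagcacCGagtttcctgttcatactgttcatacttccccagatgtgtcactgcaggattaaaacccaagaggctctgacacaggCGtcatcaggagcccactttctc
Il18rap, chr1:40515112-40515361, plus strand: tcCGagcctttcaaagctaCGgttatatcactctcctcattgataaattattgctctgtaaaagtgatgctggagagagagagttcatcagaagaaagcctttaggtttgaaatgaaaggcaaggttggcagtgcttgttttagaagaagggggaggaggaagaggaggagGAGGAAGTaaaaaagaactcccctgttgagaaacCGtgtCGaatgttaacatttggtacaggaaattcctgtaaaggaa

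The stretch of Il1rl1, the uncounted gene, held 0 CG dinucleotides and 37.6% G and C. That of Il1r1 held 3 CG dinucleotides and 48.4% G and C, and that of Il18rap 4 CG dinucleotides and 42.0% G and C. Over the whole windows of 300 bases, CG dinucleotides numbered 1 and 3 for both starts of Il1rl1 and 33 for Il1rap, against a median of 7 over all windows. Il1r1 also has a second start, whose stretch is not shown, and its windows held 5 and 14. The window of Il18rap, a counted gene, held 4, and that of Il1r2, a gene near the floor of detection, held 16. A search of both strands for 5 motifs found the PU.1 motif GAGGAAGT in the window of Il18rap, starting 79 bases before the gene start, and in no other member's window (3.2% of all 32851 windows hold it). An interferon-stimulated response element (TTTC, any 2 bases, TTTC) was found in the windows of Il1rap and Myd88 (3.44% of all windows). The ETS motif CCGGAAGT (3.89% of windows), which differs from the PU.1 motif in its opening letters, the Egr1 motif GCGTGGGCG (0.612%) and the NF-kB motif (GGG, any 2 bases, TTTCC; 1.63%) were found in no member's window. These are matches of letters only.

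Il1r1, the signalling receptor of IL-1, was counted at 160, 123 and 42 reads in WT replicates 1 to 3 and at 184, 124 and 165 in KO replicates 1 to 3. On the scale of normalized CPM, counts scaled by edgeR's TMM method, these were 32.8, 15.1 and 13.0 in WT and 37.3, 22.6 and 33.4 in KO. WT replicate 1 lay among the KO libraries, and the other two WT libraries lay below all of them. The log2 fold change of KO over WT was 0.61 (SE 0.47, 95% interval -0.44 to 1.66, edgeR adjusted p = 0.99). Fold changes from 0.739 to 3.16 thus lay within the interval. In bulk libraries, fewer cells that carry a transcript and less of it per cell cannot be told apart.

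Il1rap, the accessory protein that Il1r1 needs for signalling, was the only tested member with a lower estimate in KO. Its counts were 65, 411 and 134 in WT and 161, 42 and 63 in KO, or 13.3, 50.5 and 41.4 normalized CPM in WT and 32.6, 7.64 and 12.7 in KO. The groups crossed in both directions, with WT replicate 1 among the low libraries and KO replicate 1 close to the high ones. The log2 fold change was -0.99 (SE 0.63, 95% interval -2.40 to 0.42, edgeR adjusted p = 0.99). Of the tested members it varied most, 6.61-fold between the highest and lowest library, with a coefficient of variation (CV) of 55.2% in WT and 74.7% in KO against medians of 33.1% and 28.1% over all 12513 genes tested.

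The balance of the receptor and its accessory protein differed between libraries of the same group. In FPKM, counts per length and depth, Il1r1 over Il1rap was 3.78, 0.460 and 0.481 in WT and 1.75, 4.53 and 4.02 in KO. In 4 libraries Il1r1 was the higher of the pair, and in WT replicates 2 and 3 Il1rap was. WT replicate 1 fell between KO replicates 1 and 3, so the ratio overlapped between the groups.

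Il1r2, the decoy receptor, was near absent. It gave 9, 8 and 0 counts in WT and 12, 1 and 1 in KO, 31 counts in all. Of the libraries, 3 exceeded 3 counts, 2 of them WT, and neither group stood above the other. In a fit without the filter on low counts its log2 fold change was -0.03 with an SE of 1.79, which leaves the difference undetermined at this depth.

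Il1rl1, the receptor of IL-33, gave 0 counts in all 6 libraries. Over all libraries together, a count of 0 allows a level of up to 0.0950 CPM by counting error alone, without the spread between libraries. No fold is given.

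The chains of the IL-18 receptor were unequal. Il18r1, the chain that binds IL-18, gave 24, 0 and 0 counts in WT and 29, 7 and 0 in KO, so that 3 of 6 libraries, the replicates numbered 1 and KO replicate 2, held all of its 60 counts. Without the filter its log2 fold change was 0.53 with an SE of 1.96. Il18rap, the accessory chain, was counted in every library, at 160, 199 and 39 reads in WT and 218, 141 and 112 in KO. In normalized CPM this was 32.8, 24.5 and 12.1 in WT and 44.2, 25.7 and 22.7 in KO. The groups overlapped broadly, with WT replicate 3 lowest and KO replicate 1 highest. The log2 fold change was 0.41 (SE 0.48, 95% interval -0.65 to 1.47, edgeR adjusted p = 0.997). It was 0.06 (SE 0.54) without KO replicate 1, 0.11 (SE 0.44) without WT replicate 3 and 0.74 (SE 0.53) without WT replicate 1. Per length and summed over the libraries, the accessory chain was 15.1 times the binding chain in FPKM. This ratio rests on the lengths behind the deposited FPKM, 8567 bases for Il18r1 and 7450 for Il18rap. In GENCODE the exon lengths are 4817 and 6752 bases, and with these the ratio is smaller.

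**Figure D1:**
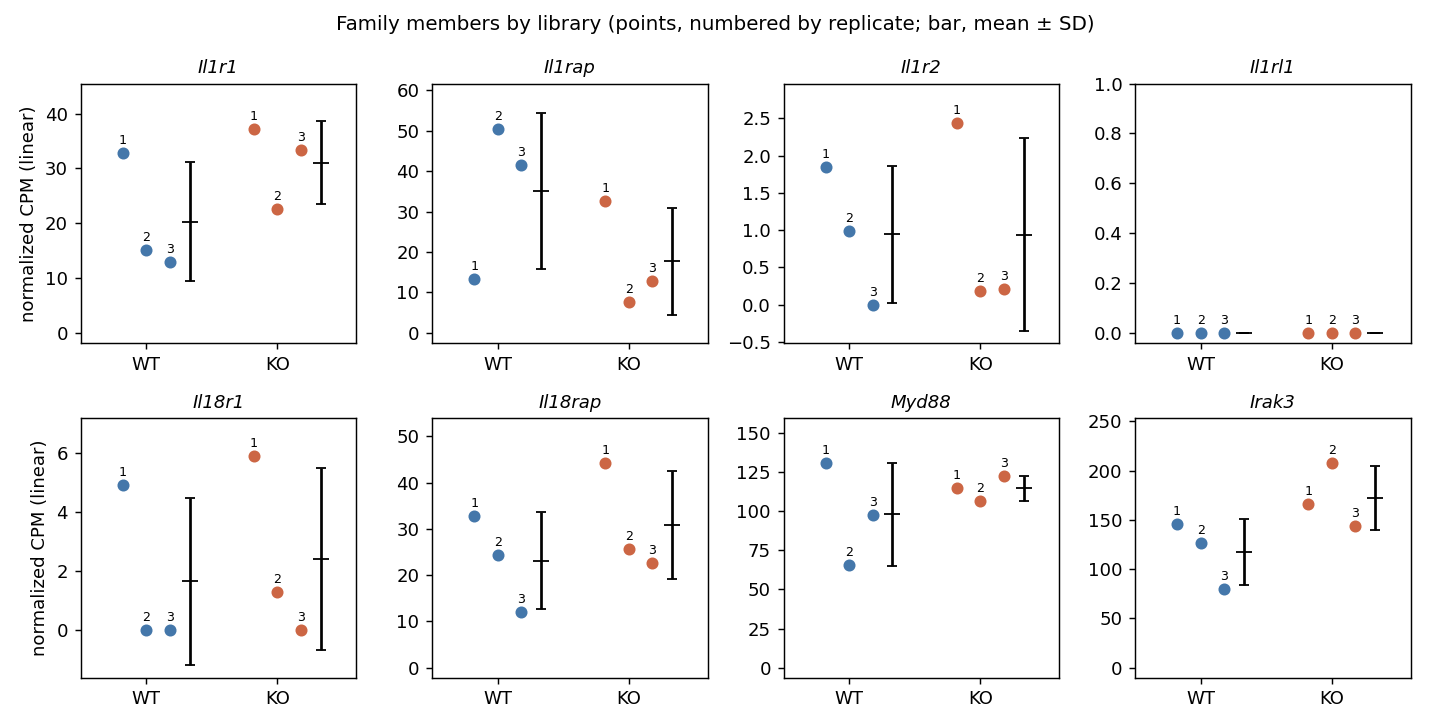
Normalized CPM (linear axis) of the 8 members in each library of WT and KO HSCs, with points numbered by replicate and bars giving the mean and SD of 3 libraries. Il1rl1 is at 0 throughout, Il18r1 is held by 3 libraries, and WT replicate 1 lies within the range of the KO libraries for Il1r1 (32.8), Il1rap (13.3), Il18rap (32.8) and Irak3 (145.6), and above it for Myd88 (130.4).

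Myd88, the adaptor shared with Toll-like receptors, was counted at 636, 531 and 316 reads in WT and 566, 585 and 603 in KO. Normalized CPM were 130.4, 65.3 and 97.7 in WT and 114.7, 106.5 and 122.0 in KO. The KO libraries lay inside the range of the WT libraries, with a CV of 6.80% against 33.3% in WT. The log2 fold change was 0.23 (SE 0.28, 95% interval -0.40 to 0.86, edgeR adjusted p = 0.997), so a change above 1.81-fold was outside the interval. It was 0.01 (SE 0.27) without WT replicate 2, the lowest library, and 0.50 (SE 0.29) without WT replicate 1, the highest. Exons of Myd88 overlap those of Acaa1a on the opposite strand, and the longest stretch shared by a pair of exons is 223 bases. Acaa1a had 518, 654 and 185 counts in WT and 458, 524 and 461 in KO, and without a stated strand setting, reads of that stretch cannot be assigned to either gene.

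Irak3, which restrains IRAK signalling, was the most abundant member in counts, with 710, 1034 and 259 reads in WT and 820, 1140 and 710 in KO. Normalized CPM were 145.6, 127.1 and 80.0 in WT and 166.1, 207.5 and 143.7 in KO. The overlap was confined to WT replicate 1, which exceeded KO replicate 3 by a small margin. The log2 fold change was 0.55 (SE 0.27, 95% interval -0.05 to 1.15), with an unadjusted p of 0.0688 and an adjusted p of 0.92 in edgeR. Exons of Irak3 overlap those of Tmbim4 on the opposite strand, and the longest stretch shared by a pair of exons is 122 bases. Tmbim4 had a log2 fold change of 0.03 (SE 0.23).

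Across the tested members, 0 of 5 passed the adjusted threshold by edgeR or by DESeq2, against 0.0719% and 0.959% of all 12513 genes tested. By direction, edgeR called 0.016% of all genes higher in KO and 0.0559% lower. At an unadjusted p under 0.05 the count was 0 of 5 by both tools, where 5.71% of all genes passed by edgeR and 6.74% by DESeq2. The groups did not overlap for 0 of 5 members, against 12.4% of all genes. Estimates were higher in KO for 4 members and lower for 1, with a median log2 fold change of 0.41 beside -0.01 for all genes. Two-sided exact permutation tests of log2(CPM + 0.5) gave p = 0.2 for Il1r1, Il1rap and Irak3 and p = 0.5 for Il18rap and Myd88, where 0.1 is the smallest p that 3 against 3 allows. The SE of the members lay between 0.27 and 0.63, around the median of 0.42 for all genes.

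WT replicate 1 was the WT library closest to the KO mean in 5 of 5 tested members and in 33.6% of all genes tested. It was singled out after these values were seen, so that a wider gap without it follows from the choice, and the values without it are a description. The groups then did not overlap for Irak3, Il1r1 and Myd88, higher in KO, and for Il1rap, lower in KO (4 of 5 members, and 23.3% of all genes, a share from which nothing is read). The log2 fold changes were then 0.73 (SE 0.30) for Irak3, 1.14 (SE 0.48) for Il1r1 and -1.38 (SE 0.60) for Il1rap. In that fit 3 of 5 members and 6.35% of all genes had an unadjusted p under 0.05, which is likewise no comparison, and no member passed after adjustment by edgeR, with Irak3 lowest at an adjusted p of 0.75. Without WT replicate 2 or WT replicate 3, 0 members had an unadjusted p under 0.05 and 0 had groups without overlap. For Il1rap, the log2 fold change was -1.78 (SE 0.66, edgeR adjusted p = 0.89) without KO replicate 1, and -0.63 without either WT replicate 2 (SE 0.73) or KO replicate 2 (SE 0.67). Without WT replicate 3, in which Med23 was lowest, Irak3 was at 0.34 (SE 0.25), Il1r1 at 0.38 (SE 0.48), Myd88 at 0.23 (SE 0.32) and Il1rap at -0.86 (SE 0.71) on the log2 scale. Leaving out both libraries without Y-linked counts gave 0.47 (SE 0.25) for Irak3, 0.34 (SE 0.54) for Il1r1 and -0.67 (SE 0.80) for Il1rap. With the replicate number as a block, 1 of 5 members, Irak3, had an unadjusted p under 0.05 in edgeR (0.0229, adjusted p = 0.54), where 8.03% of all genes did.

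**Figure D2:**
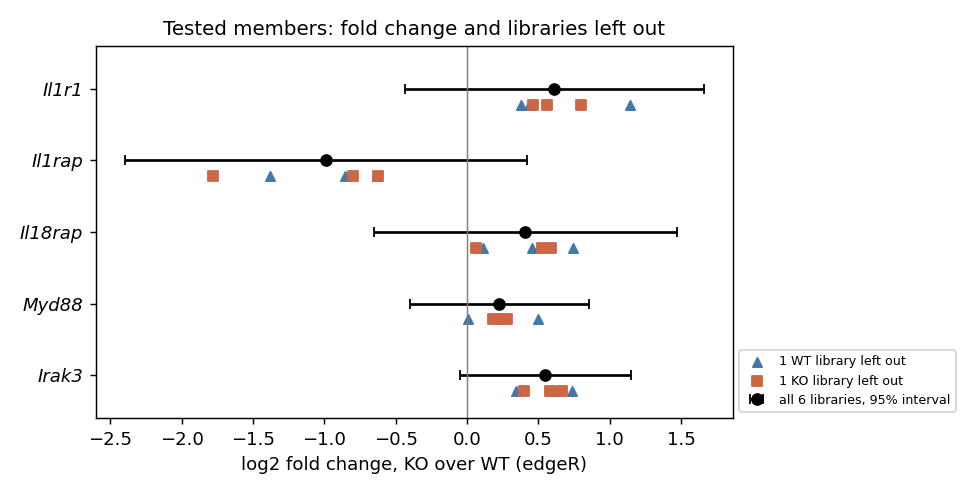
Log2 fold change of KO over WT in edgeR for the 5 tested members, with black points and lines for all 6 libraries and their 95% interval, blue triangles for fits without 1 WT library and orange squares for fits without 1 KO library. Every black interval spans 0, Il1r1 moves from 0.61 to 1.14 without WT replicate 1, Il1rap moves from -0.99 to -1.78 without KO replicate 1, and no sign changes.

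Per length, the members fell into levels that differed by more than the spread between libraries. In WT, Myd88 was at 20.8 ± 7.53 FPKM and Irak3 at 16.6 ± 5.59 (SD, n = 3), which overlapped each other and lay above all other members. Il18rap (3.10 ± 1.53), Il1rap (2.26 ± 1.24) and Il1r1 (2.06 ± 1.20) followed without a gap between neighbours. Il1r2 (0.409 ± 0.404), Il18r1 (0.197 ± 0.340) and Il1rl1 (0) made up the rest, below every library of Il1r1. In KO, Myd88 was at 25.0 ± 0.939 and Irak3 at 25.0 ± 5.54 FPKM, then Il18rap at 4.22 ± 1.70 and Il1r1 at 3.20 ± 0.775. Il1rap, at 1.20 ± 0.919 FPKM, lay below every KO library of Il1r1 and overlapped Il1r2 (0.413 ± 0.574), which in turn overlapped Il18r1 (0.289 ± 0.374). Among genes tested, 81.6% had a lower mean FPKM than Myd88 and 79.5% a lower one than Irak3, but only 32.4, 24.8 and 16.8% a lower one than Il18rap, Il1r1 and Il1rap. The lengths implied by the deposited FPKM were between 1.10 and 1.91 times the exon length in GENCODE. With GENCODE lengths, Il1r1 and Irak3 moved ahead of Il18rap and Myd88 in KO, and Il1r1 ahead of Il1rap in WT, as did Il18r1 ahead of Il1r2 in KO, all of them neighbours that overlapped on both scales.

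Irak3 over Myd88 in FPKM, the inhibitor beside the adaptor, was 0.735, 1.28 and 0.540 in WT and 0.954, 1.28 and 0.776 in KO. In FPKM, Irak3 exceeded Myd88 in replicate 2 of either group and in no other library. With GENCODE lengths it also did so in KO replicate 1, at 45.2 against 44.5 normalized CPM per kb. The genes whose pattern over the 6 libraries came closest to that of Irak3 were 3110057O12Rik, Ubxn2b and Zfand1, with root mean square differences of centred log2 CPM of 0.0588, 0.106 and 0.114 among 10136 genes compared. Ubxn2b had 42.6, 41.3 and 25.0 normalized CPM in WT and 59.8, 69.3 and 52.2 in KO, and as with Irak3 WT replicate 3 was the lowest library and KO replicate 2 the highest.

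Within the chromosome 1 cluster, Il1rl1 was the only receptor gene without a count. Map4k4, a kinase gene upstream of it, had 51.9, 55.5 and 47.6 normalized CPM in WT and 70.9, 68.4 and 94.3 in KO, a log2 fold change of 0.59 (SE 0.28, unadjusted p = 0.0568 in edgeR), without overlap. Il1rl2, the IL-36 receptor between Il1r1 and Il1rl1, gave 15, 82 and 0 counts in WT and 14, 15 and 19 in KO, with a log2 fold change of -0.51 (SE 1.28). Slc9a4, downstream of Il18rap, was at 0 in all libraries. Il1rl1 and Il18r1, adjoining genes with 0 and 60 counts, lay between Il1r1 with 798 and Il18rap with 869 counts over all libraries.

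**Figure D3:**
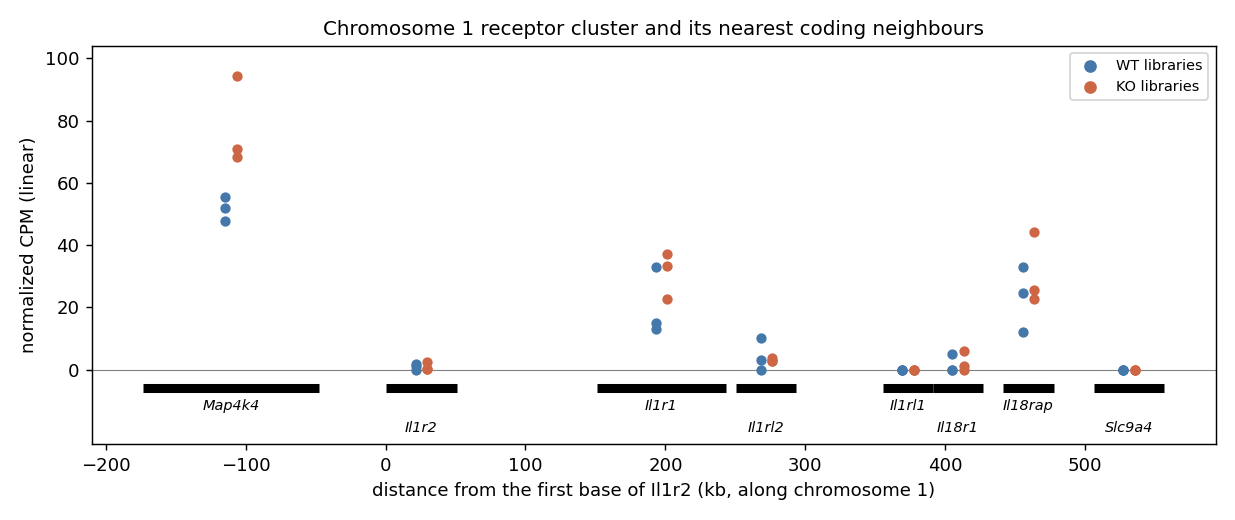
Normalized CPM (linear axis) of the chromosome 1 receptor genes and their nearest coding neighbours against distance from the first base of Il1r2 in kb, with black bars for the genes and 1 point per WT (blue) and KO (orange) library. Il1r1 and Il18rap stand at 12.1 CPM or more in every library, Il1rl1 is at 0, and Map4k4 alone separates the groups.

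The rest of the pathway was read from lists of 109 further gene symbols, of which 105 were in the tables and 70 were tested. The symbols not found, Il36a, Il36b, Il36g and Il36rn, are later names of the listed Il1f6, Il1f8, Il1f9 and Il1f5. The lists also took in neighbours of the chromosome 1 cluster, chosen by position and not by pathway. Of these, Map4k4, with a higher estimate in KO, and Mfsd9, with a lower one, were tested. None passed the adjusted threshold in edgeR, in either direction, and 4 of 70 had an unadjusted p under 0.05, beside 5.71% of all genes. DESeq2 called 1 of 70, Prtn3, beside 0.959% of all genes. Estimates were higher in KO for 43 and lower for 27, with a median log2 fold change of 0.08 beside -0.01 for all genes. The groups did not overlap for 8 that were higher in KO, the neighbour Map4k4 among them, and 1 that was lower. Over all genes the shares were 6.25% and 6.15%.

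Of the ligands, Il18 and Il18bp, the soluble inhibitor of IL-18, were the 2 with enough counts to test. Il18 had 18.9, 27.9 and 40.2 normalized CPM in WT and 19.0, 26.8 and 37.8 in KO, a log2 fold change of -0.05 (SE 0.44). Il18bp was at 0.35 (SE 0.33) on that scale. The libraries of both groups covered nearly the same range of Il18. Il1b, the main secreted IL-1, was at 0 in all libraries, Il33 gave at most 1 count, and Il1a gave 0, 17 and 1 counts in WT and 0, 0 and 13 in KO.

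Sigirr, a family member that dampens TIR signalling, was the only tested pathway gene that was lower in KO without overlap, at 147.8, 150.3 and 161.0 normalized CPM in WT and 98.5, 136.5 and 123.8 in KO. Its log2 fold change of -0.36 (SE 0.22, edgeR adjusted p = 0.98) did not pass. Among 10 receptors of the family, members included, 6 were tested, 3 with higher and 3 with lower estimates.

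Prtn3, a neutrophil protease that can cleave IL-1 family ligands, came nearest to the threshold. Its normalized CPM were 83.0, 141.3 and 86.5 in WT and 304.5, 307.2 and 355.3 in KO, and every KO library exceeded every WT library. The log2 fold change was 1.63 (SE 0.25, edgeR adjusted p = 0.065). Elane, which encodes another granule protease, had 115 counts in KO replicate 3 and at most 10 in any other library, and its part in the values of Prtn3 was not tested. Estimates among 9 tested processing genes were higher for 6 and lower for 3.

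Tlr4, the lipopolysaccharide receptor that also signals through Myd88, had 34, 39 and 8 counts in WT and 105, 177 and 55 in KO. The groups did not overlap, and the log2 fold change was 2.16 (SE 0.64, edgeR adjusted p = 0.50). Rel, the NF-kB subunit c-Rel, had 28.5, 24.6 and 22.6 normalized CPM in WT and 81.4, 48.0 and 37.0 in KO, a log2 fold change of 1.14 (SE 0.38, edgeR adjusted p = 0.66). Neither passed the threshold. Estimates were higher in KO for 18 of 27 signalling genes, the members Myd88 and Irak3 counted among the 18. They were also higher for 3 of 5 NF-kB subunits, 10 of 17 NF-kB targets and 5 of 7 Toll-like receptor genes. The medians of these lists lay between 0.06 and 0.14 on the log2 scale.

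**Figure D4:**
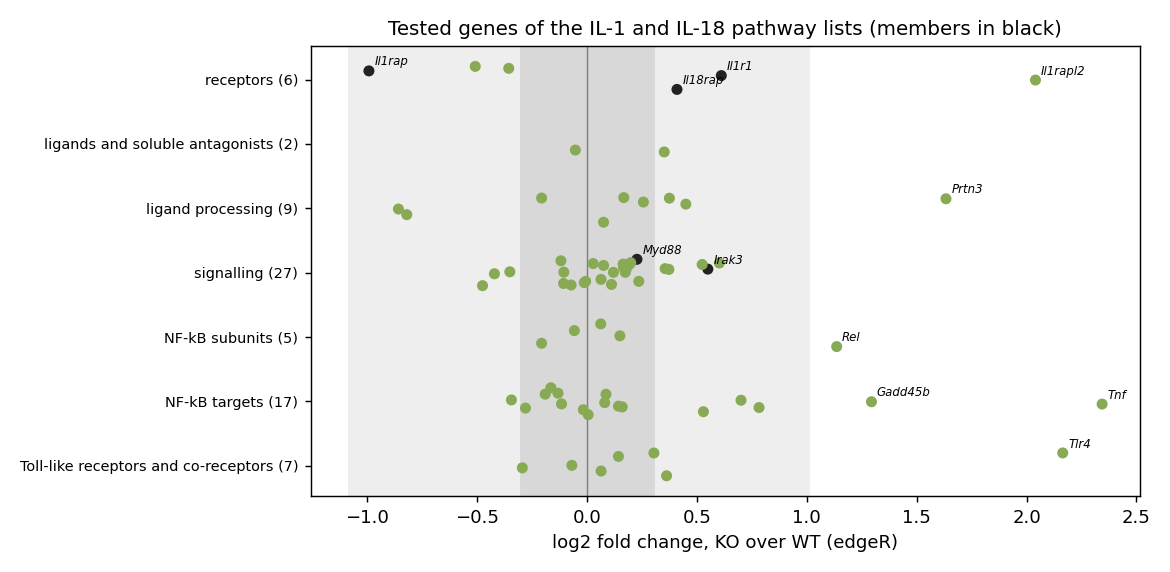
Log2 fold change of KO over WT in edgeR for the tested genes of each pathway list (number in parentheses), members in black, others in green, with light and dark grey bands for the central 90% and 50% of all genes tested. The members lie within the light band, from -0.99 for Il1rap to 0.61 for Il1r1. Tlr4 (2.16), Prtn3 (1.63) and Rel (1.14) lie to its right. So do Tnf (2.34), Il1rapl2 (2.04) and Gadd45b (1.29), each with a mean under 50 counts.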

How the data were processed

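RNA-seq was analysed from 3 WT and 3 KO libraries of sorted HSCs. The authors deposited 2 tables for 34745 genes, unnormalized read counts (whole numbers) and FPKM, which equals the count over a length per gene and the column total (spread of at most 0.0629%). The submitters' processing notes name TopHat, HTSeq and mm10; versions, annotation and strand setting are not given in the sources used here. The methods name the TruSeq kit and the labels SMART-Seq v4. Neither source says that replicates were separate animals, so p-values measure the spread between these samples. The count test was run with edgeR 4.0.16 under R 4.3.3 (TMM, filterByExpr, robust quasi-likelihood test, 12513 genes, Benjamini-Hochberg adjustment over all of them, threshold 0.05). The procedure was tested on simulated data in which the planted changes were larger than the estimate of any member. Its power at the sizes estimated for the members was not tested. Alternatives were DESeq2 1.42.0, limma 3.58.1 on log2(FPKM + 1) and log2(FPKM + 0.1), other scalings and filters, the replicate number as a block, and libraries left out. Named genes are all members, Med23, pathway genes past the threshold, up to 3 highest and 3 lowest pathway genes without overlap and a mean of at least 50 counts, and the 3 genes most like Irak3; others, and the emphasis on WT replicate 1, were chosen after values were seen. Members and lists were chosen with earlier results of these data known. Sequences are from RefSeq (GRCm38.p6).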

Additional observations from a re-analysis of the deposited data

How the results depend on the processing

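No member passed the adjusted threshold under any alternative. The log2 fold changes of the 5 tested members kept their sign in all 17, within 0.34 to 0.73 for Irak3, 0.34 to 1.14 for Il1r1, -1.78 to -0.57 for Il1rap, 0.06 to 0.74 for Il18rap and 0.01 to 0.50 for Myd88. The -0.57 of Il1rap is a difference of log2(FPKM + 1), where the added 1 draws low values together. On log2(FPKM + 0.1) it was -0.92. Over all genes, 9 passed in edgeR, 120 in DESeq2, 5 with the replicate block, 15 with limma on log2(FPKM + 1) at a mean FPKM of at least 1, and between 5 and 11 with 1 library left out. Prtn3 was the 1 pathway gene that passed with DESeq2, without the filter, with at least 10 counts in every library and in that limma fit, and the count lay between 0 and 1 with a library left out (1 without WT replicate 2). With upper-quartile scaling, the groups did not overlap for 1 member (Irak3), beside 12.3% of all genes. Without both libraries numbered 3 the number was 1 (Irak3), beside 36.2%. With a library left out, it lay between 0 and 4. It was 4 without WT replicate 1, beside 23.3% of all genes. Without KO replicates 1, 2 and 3 in turn it was 1 (Il1rap, Il1r1 and Irak3), beside 21.2, 20.5 and 22.2% of all genes. The cause of these moves was not tested.

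The labels do not say what equal replicate numbers share, and they were not taken as pairs. Deviations of same-numbered libraries correlated at 0.163, 0.0315 and 0.162, and WT replicate 2 correlated best with KO replicate 1 (0.0323). Both libraries numbered 3 lacked Y-linked counts and had the highest share of Gm26917 and Gm42418 in their group (18.1 and 12.0%). With the replicate block Irak3 was at 0.58 (SE 0.21, edgeR adjusted p = 0.54), and no call on a member changed. Low or uneven counts limit Il1r2, Il18r1 and Il1rl1 to statements on detection.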
